A study of Mus musculus with 9 samples.

Results

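Amino acid transporter transcripts were examined in the RNA of mouse milk fat. The set held 8 genes chosen by name, Slc7a5, Slc3a2, Slc1a4, Slc1a5, Slc7a7, Slc7a8, Slc38a1 and Slc38a2, out of 11206 genes with a row in at least 1 library. Milk was taken on lactation day 10 from first-litter female ICR mice, an outbred CD1 stock. Fat made up 10% of the energy in the control diet (5 dams, 3.85 kcal per gram) and 60% in the high fat diet (4 dams, 5.24 kcal per gram). Both diets gave 7% of energy as sucrose. Feeding began at 4 weeks of age, 4 weeks before mating, and went on through pregnancy and lactation. Every dam was milked separately. Dams of the same diet shared cages in pairs before mating, and which dams shared one is not labelled. Values are FPKM, fragment counts scaled to transcript length and to the mapped fragments of the library. The tables list only genes above 1 FPKM, so a gene with no row is called unlisted and is read as at or below 1. Control diet libraries listed 7098 to 8903 genes, and high fat diet libraries 1 to 4 listed 7974, 5124, 2075 and 4986.

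The lactating mammary epithelium draws amino acids from the blood to build milk protein. Slc3a2 encodes 4F2hc (CD98), the heavy chain that carries light-chain transporters to the cell surface. Its partners include Slc7a5 (LAT1) and Slc7a8 (LAT2), which exchange large neutral amino acids, and Slc7a7 (y+LAT1), which exchanges cationic for neutral ones. Slc1a4 (ASCT1) and Slc1a5 (ASCT2) exchange small neutral amino acids with sodium, and Slc38a1 (SNAT1) and Slc38a2 (SNAT2) take up glutamine and alanine with sodium. SNAT2 is known to be induced when cells lack amino acids.

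Milk fat held 4 of the 8 transporters above the listing limit. The heavy chain Slc3a2 was listed in all 9 libraries, Slc38a2 in 7, Slc7a7 in 4 and Slc1a4 in 3. Slc7a5, Slc7a8, Slc1a5 and Slc38a1 were listed in 0 libraries, which places them at or below 1 FPKM in each. The heavy chain was thus listed in 9 libraries while the light chains LAT1 and LAT2 were listed in 0. Of the 8 genes, 4 were listed in control diet libraries 3 and 5 and 3 in control diet 1, 2 and 4. In the high fat diet libraries 2 were listed in libraries 1 and 4 and 1 in libraries 2 and 3, and the rows of Slc7a7 and Slc1a4 were all from the control diet. High fat diet 1 to 4 listed 7974, 5124, 2075 and 4986 genes of any kind, against 7098 to 8903 in control diet libraries. The share of all genes with rows on the control diet alone was not taken, so these counts cannot be set against it. In GRCm38 the listed genes lie on the minus strand, Slc3a2 at chr19:8706882-8723369, Slc38a2 at chr15:96687392-96699730, Slc7a7 at chr14:54369442-54417780 and Slc1a4 at chr11:20302180-20332713. Slc7a7 shares 232 bases with Oxa1l on the other strand, which was listed in 8 libraries at 1.48 to 7.48 FPKM. Slc7a5 shares 26545 bases, its whole annotated span, with Gm20388 on the other strand, which was listed in 0 libraries. The strand setting of the counting is not given in the sources used here, so fragments in these stretches may belong to either gene.

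The promoters of the 4 listed transporters are shown because amino acid shortage is known to act on genes of this kind through the C/EBP-ATF response element. The windows span 250 bases before to 50 after the transcript start, 5′ to 3′, from RefSeq (GRCm38.p6), and capitals mark TGATGNAA on either strand. They lie at chr19:8713848-8714147 (Slc3a2), chr15:96699679-96699978 (Slc38a2), chr14:54417895-54418194 (Slc7a7, 1 of 5 starts) and chr11:20332664-20332963 (Slc1a4), all on the minus strand. The Slc3a2 window lies inside the annotated span of the gene.
Slc3a2: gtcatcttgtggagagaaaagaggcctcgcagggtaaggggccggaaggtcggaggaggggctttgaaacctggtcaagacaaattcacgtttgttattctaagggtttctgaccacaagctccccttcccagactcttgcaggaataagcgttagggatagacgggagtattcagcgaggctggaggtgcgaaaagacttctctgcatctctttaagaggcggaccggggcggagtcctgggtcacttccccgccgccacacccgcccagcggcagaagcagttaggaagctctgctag
Slc38a2: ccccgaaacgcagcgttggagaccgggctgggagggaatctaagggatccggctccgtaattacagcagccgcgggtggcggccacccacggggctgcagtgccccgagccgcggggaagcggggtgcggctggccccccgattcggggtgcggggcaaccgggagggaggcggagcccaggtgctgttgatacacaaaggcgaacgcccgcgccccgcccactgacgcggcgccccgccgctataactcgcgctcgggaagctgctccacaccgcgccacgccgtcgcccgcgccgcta
Slc7a7: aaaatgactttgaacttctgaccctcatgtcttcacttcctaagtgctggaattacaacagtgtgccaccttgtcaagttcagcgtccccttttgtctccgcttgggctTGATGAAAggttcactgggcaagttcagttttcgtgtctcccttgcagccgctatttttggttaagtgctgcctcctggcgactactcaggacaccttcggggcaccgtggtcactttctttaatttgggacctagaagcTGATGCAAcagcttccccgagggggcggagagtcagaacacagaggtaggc
Slc1a4: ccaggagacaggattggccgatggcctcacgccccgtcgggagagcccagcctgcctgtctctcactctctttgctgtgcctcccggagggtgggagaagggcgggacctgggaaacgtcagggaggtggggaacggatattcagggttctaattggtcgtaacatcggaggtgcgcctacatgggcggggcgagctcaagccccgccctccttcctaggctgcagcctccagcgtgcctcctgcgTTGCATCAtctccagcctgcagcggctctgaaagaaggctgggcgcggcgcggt
The Slc1a4 window held 1 match, across the transcript start. The Slc7a7 window shown, which has the most matches of its 5 windows, held 2. Another of the 5 overlaps it and holds its second match, and the other 3 held 0. The Slc3a2 and Slc38a2 windows held 0 matches of these letters, as did that of Slc7a8. Sequence outside the windows, such as introns, was not searched, so 0 matches in a window does not show that a gene lacks the letters. Over all 32851 promoter windows of this length, 3.97% held the letters. A match is a description of the letters and does not show binding.

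The heavy chain Slc3a2 was the most abundant member. It stood at 6.42, 8.95, 12.3, 13.0 and 20.3 FPKM in control diet libraries 1 to 5. In high fat diet libraries 1 to 4 it stood at 9.87, 3.29, 2.89 and 2.83 FPKM. High fat diet 1 lay inside the control range and the other high fat diet libraries lay below it. The means were 12.2 ± 5.25 FPKM (SD, n = 5) and 4.72 ± 3.44 FPKM (SD, n = 4). The difference did not pass the test across all genes (log2 fold change -1.27, SE 0.640, limma adjusted p = 0.101). It passed without high fat diet 1 (limma log2 fold change -1.63, adjusted p = 0.0202). Without that library 5215 of the 7983 genes tested were called lower, and the median log2 fold change was -1.37.

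The glutamine and alanine transporter Slc38a2 was lower on the high fat diet. Its level was 2.98, 3.75, 5.63, 2.76 and 8.37 FPKM in control diet libraries 1 to 5. It was 2.14 and 2.21 FPKM in high fat diet libraries 1 and 4, and unlisted in libraries 2 and 3. The diets did not overlap, as was the case for 11.1% of all genes tested. On the log2(FPKM + 1) scale, with unlisted libraries at 0, the fold change was -1.59 (SE 0.536, limma adjusted p = 0.0363). With unlisted libraries set at the limit of 1 FPKM, the fold change was -1.09 and did not pass (limma adjusted p = 0.0664). Control diet libraries alone carried Slc38a2 past the filter of at least 1 FPKM in at least 4 libraries. Adding 1 makes a fold change between listed values of low FPKM look smaller, while setting unlisted libraries to 0 can make it look larger. In bulk RNA of this kind, fewer cells of a type and less RNA per cell cannot be told apart.

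Slc7a7 and Slc1a4 lay close to the listing limit. Slc7a7, the y+LAT1 light chain, was at 1.03, 2.44, 1.92 and 1.36 FPKM in control diet 1, 3, 4 and 5. It was unlisted in control diet 2 and in the 4 high fat diet libraries. Its log2 fold change was -1.12 (SE 0.405, limma adjusted p = 0.0432), with unlisted libraries set to 0. Only control diet libraries carried it past the filter too, and with 0 rows on the high fat diet a gene admitted this way had to differ. With unlisted libraries set at the limit of 1 FPKM instead, its log2 fold change was -0.32 (limma adjusted p = 0.0923). Slc1a4, the ASCT1 exchanger, was at 1.69, 1.48 and 2.65 FPKM in control diet 2, 3 and 5, unlisted in the others, and too rarely listed to be tested.

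**Figure D1:**
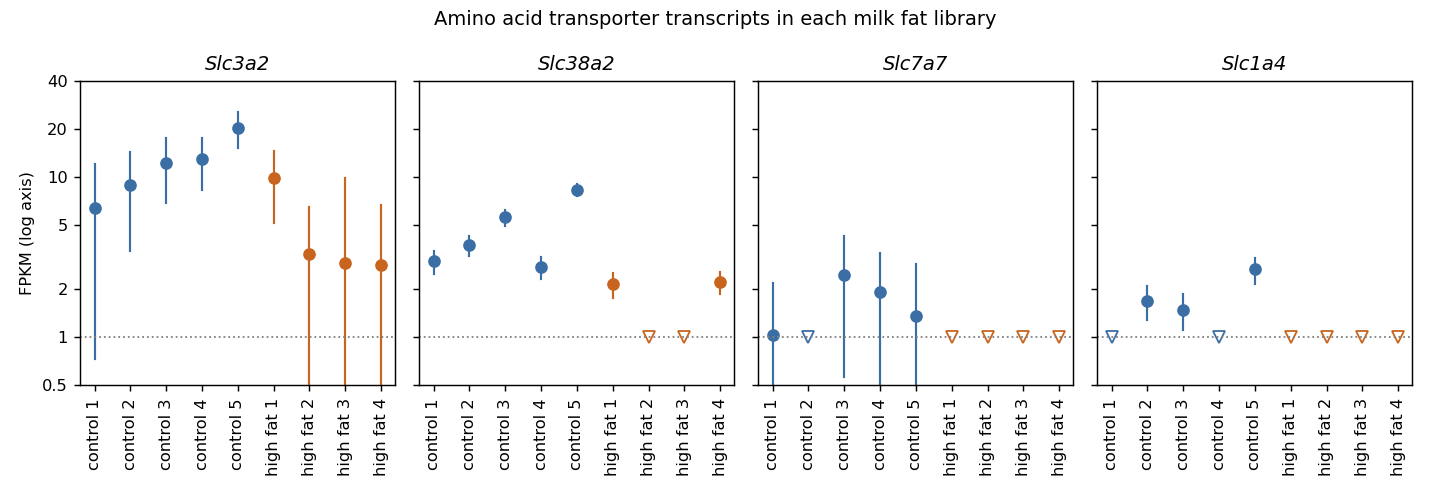
FPKM of the 4 listed transporters in each library on a log axis, control diet in blue and high fat diet in orange. Points are the deposited values, bars their deposited confidence bounds (cut at 0.5), and open triangles on the dotted line mark unlisted libraries at the limit of 1 FPKM; Slc3a2 lies at 2.83 to 3.29 FPKM in high fat diet 2 to 4, and Slc38a2 is unlisted in high fat diet 2 and 3.

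Of the 3 members tested, limma called 2 lower and 0 higher, among 7983 genes tested of which 20.8% were called lower and 0% higher. At an unadjusted p below 0.05 the same 2 members were lower, as were 49.5% of all genes. Over all genes tested, the fold change on the log2 scale had a median of -1.08, against -1.27 over the 3 members. Relative to the median of all genes, with unlisted libraries at 0, Slc38a2 lay at -0.51, Slc3a2 at -0.19 and Slc7a7 at -0.04. The place of Slc7a7 changed with the setting. With unlisted genes at 1 FPKM it was at -0.32 against a median of -0.71. Adding 0.1 instead of 1 before the log put it at -3.28 against a median of -2.09. Slc38a2 lay below both medians (-1.09 and -3.21), and Slc3a2 below the first alone (-1.27 and -1.46). After the libraries were divided by size factors, taken over the 1847 genes listed in all 9, limma called 0 of the 3 members and 0 genes in all (1600 lower and 53 higher by unadjusted p below 0.05). The log2 fold changes were then -1.14 for Slc38a2, -0.79 for Slc7a7 and -0.22 for Slc3a2, against a median of -0.55 (limma adjusted p = 0.287, 0.161 and 0.773). That median is over all genes tested, with unlisted libraries at 0. Over the 1847 genes listed in all 9 libraries, which include Slc3a2 alone of the members, the median was 0.013. The fold changes of Slc38a2 and Slc3a2 were negative under every scaling tried, and that of Slc7a7 was positive under quantile normalization. In these scaled fits the unlisted libraries of Slc38a2 and Slc7a7 were entered at 0. The sign and size of their fold changes can depend on that value, and no scaled fit with unlisted libraries at their limits was run. Leaving out 1 library at a time gave limma adjusted p of 0.00954 to 0.122 for Slc38a2. Both Slc38a2 and Slc7a7 passed without control diet 2 or without high fat diet 1, and neither passed without any 1 of the other libraries. For Slc7a7 the limma adjusted p then ran from 0.00965 to 0.145. Of the 7983 genes tested, 2348 were called lower without control diet 2 and 5215 without high fat diet 1. Without high fat diet 2 and 3, in which Slc38a2 was unlisted, its log2 fold change was -0.76 (limma adjusted p = 0.408).

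**Figure D2:**
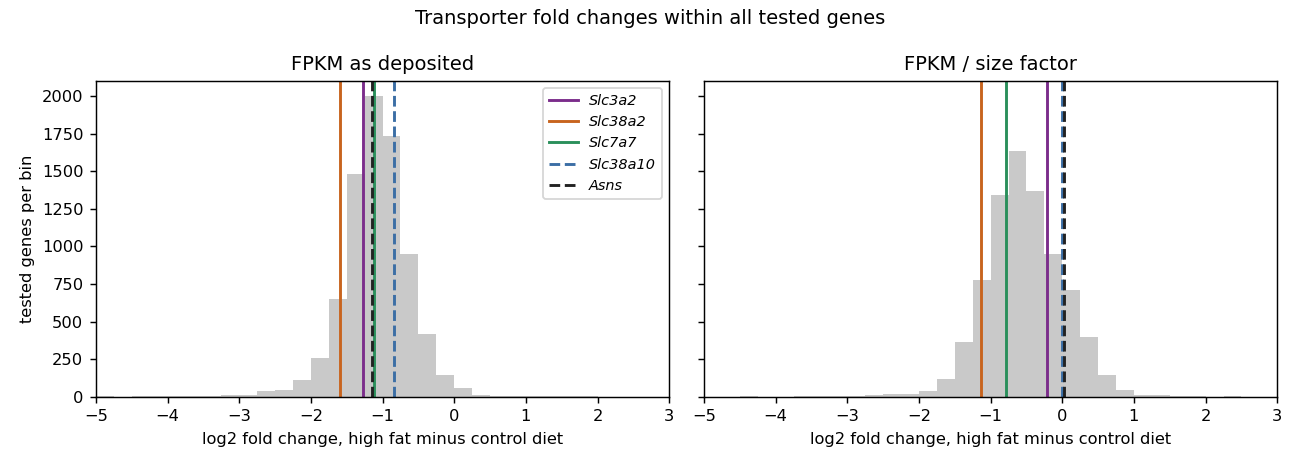
Grey bars count tested genes by log2 fold change (high fat minus control diet), as deposited at left and after size factor scaling at right, and vertical lines mark 5 genes. Slc38a2 lies in the left part of the bulk at -1.59 (percentile 10.8 of tested genes) and -1.14, while Slc3a2 moves from -1.27 to -0.22.

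The size factors ran from 0.759 to 2.33 in the control diet libraries and from 0.213 to 1.44 in the high fat diet libraries, so the listing limit differs between libraries once they are scaled. Slc38a2 then stood at 1.28, 4.94, 3.17, 1.30 and 8.31 scaled FPKM in control diet 1 to 5, and at 1.48 and 4.06 in high fat diet 1 and 4. Its limit in high fat diet 2 was 1.21, under the lowest control diet value. The limit in library 3 of that diet was 4.70, above 3 of the 5 control diet values. On that scale the diets overlapped. For Slc7a7 the listed control diet libraries stood at 0.442 to 1.37 scaled FPKM, and the limit in high fat diet 1 to 4 was 0.694, 1.21, 4.70 and 1.83. A level like that of the control diet could therefore not be seen in high fat diet 3 and 4.

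**Figure D3:**
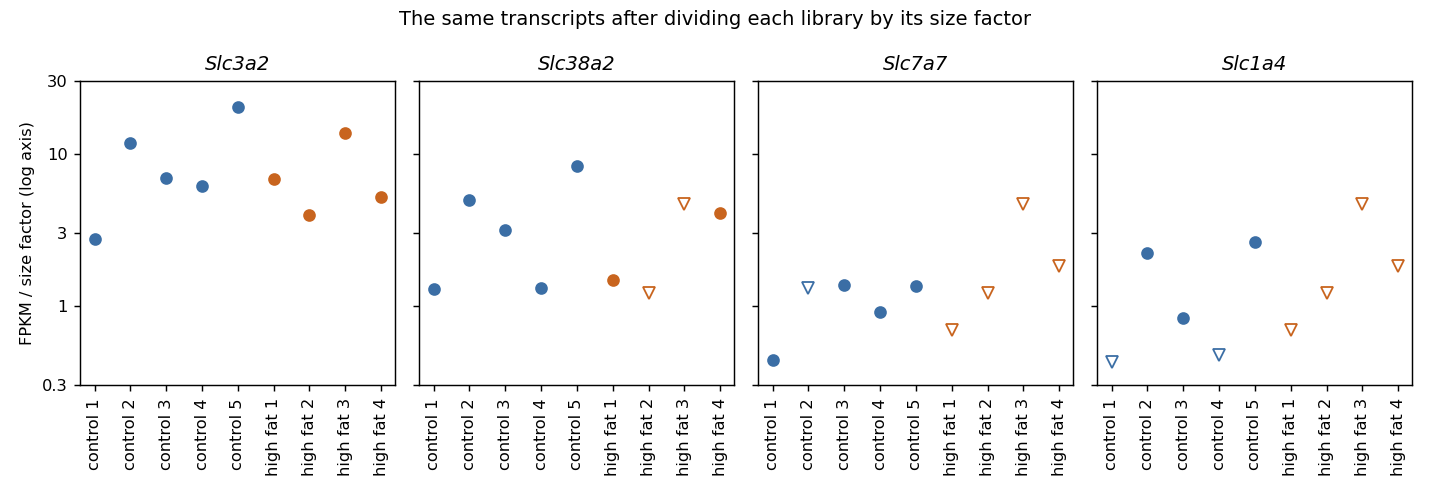
FPKM divided by the size factor of the library, on a log axis, with open triangles for the scaled listing limit where a gene was unlisted. Slc3a2 and the listed values of Slc38a2 overlap between the diets, and the limit of high fat diet 3, 4.70, lies above most control diet values of Slc38a2, Slc7a7 and Slc1a4.

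Slc3a2 exceeded Slc38a2 in all 7 libraries that listed both, with confidence bounds apart in 4 of them, control diet 3, 4 and 5 and high fat diet 1, and overlapping in 3. The ratio of Slc38a2 to Slc3a2 was 0.465, 0.419, 0.460, 0.212 and 0.412 in control diet 1 to 5. It was 0.216 and 0.783 in high fat diet libraries 1 and 4. The highest of the 7 values was thus from the high fat diet and the lowest from control diet 4, and with 2 high fat diet libraries the ratio was not tested. Slc7a7 and Slc1a4 had no fixed order, as Slc7a7 was the higher in control diet 3 and Slc1a4 in control diet 5. Ratios to unlisted partners are known only as bounds. Slc7a5 was at most 0.0492 to 0.354 times Slc3a2, the tightest bound being that of control diet 5. Slc38a2 exceeded its relative Slc38a1 at least 2.76-fold in each control diet library and at least 2.14-fold in high fat diet 1 and 4. Slc1a5 was at most 0.377 to 0.676 times Slc1a4 in the 3 libraries that listed Slc1a4.

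The precision behind these levels differed between the genes. For Slc38a2 the deposited bounds gave a standard deviation of 4.58% to 8.93% of the value. For Slc3a2 it was 12.6% to 120.6%, widest in high fat diet 3, where the value was 2.89 FPKM and the upper bound 9.87. In control diet 1, the relative standard deviation of Slc3a2 was 44.3%, against a median of 13.9% for 707 protein-coding genes within 1.2-fold of its level. GENCODE M21 gives Slc3a2 9 transcripts and Slc38a2 2, and the part of transcript number in these bounds was not tested.

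Within a library, Slc3a2 held a place that ranged widely on both diets. Among the 1847 genes listed in all 9 libraries, its percentile by FPKM was 6.44, 51.9, 31.3, 27.6 and 67.6 in control diet 1 to 5. In high fat diet 1 to 4 it was 33.1, 17.1, 61.6 and 18.1. The means were 37.0 ± 23.5 (SD, n = 5) and 32.5 ± 20.8 (SD, n = 4). They did not differ beyond this spread (2-sided exact permutation p = 0.778, or 0.968 when adjusted over 4 tests of Slc3a2 and Slc38a10 that were chosen after their values were seen; the smallest p possible is 0.00794). Within a fixed set of genes this rank does not depend on the scale of the library. The set itself does, as each of its genes had to exceed 1 FPKM in every library, including high fat diet 3 with 2075 listed genes. In that library Slc3a2 was at 2.89 FPKM with a lower bound of 0. The genes whose size-factor-scaled levels were most like Slc3a2 over the 9 libraries were Ctsa, H13 and Psap, with Pearson r of 0.988, 0.976 and 0.972 among 1846 genes. The 9 points of each pair share libraries and size factors. Ctsa encodes the lysosomal protective protein cathepsin A, H13 signal peptide peptidase and Psap prosaposin. Psap ran from 4.65 to 16.3 FPKM on the control diet and from 1.88 to 8.28 on the high fat diet.

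Of 40 other plasma membrane and lysosomal amino acid transporters, 11 were listed in at least 1 library and 3 could be tested, with 0 called lower and 0 higher, against 20.8% of all genes lower. Their median log2 fold change was -0.70, and 0 of the 3 lay below the median of all genes, -1.08. Slc38a10, a relative of the SNAT genes, was the only one listed in all 9 libraries. It was at 1.95, 3.86, 3.61, 2.02 and 6.40 FPKM in control diet 1 to 5, and at 1.65, 1.14, 1.38 and 1.44 FPKM in high fat diet 1 to 4. The diets did not overlap, yet the gene did not pass (log2 fold change -0.85, limma adjusted p = 0.160), and after size factor scaling its log2 fold change was -0.01. Slc43a2 (LAT4), a uniporter of large neutral amino acids, ranged over 1.498 to 2.49 FPKM in control diet libraries. It reached 4.69 FPKM in high fat diet 1, had 1.34 in high fat diet 2 and was unlisted in the rest (log2 fold change -0.70, limma adjusted p = 0.210). Slc6a6, the taurine transporter, was highest in high fat diet 1 too, at 3.65 FPKM against 1.29 to 2.11 in 4 control libraries (log2 fold change -0.62, limma adjusted p = 0.227). The log2 fold changes of Slc38a10, Slc43a2 and Slc6a6 were positive under quantile normalization. Slc7a11, the cystine transporter light chain that pairs with Slc3a2, had 4.14 FPKM in high fat diet 1, had 1.00 and 1.96 in control diet 2 and 5, and was listed nowhere else.

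High fat diet 1, where Slc43a2, Slc6a6 and Slc7a11 were highest, also stood apart in neutrophil markers. Of 6 neutrophil markers 4 were listed there and 0 in the other high fat diet libraries, with a summed level of 94.4 FPKM against 4.44 to 14.3 on the control diet, where 1 to 2 were listed. S100a9 was at 48.3 FPKM and Ly6g was unlisted throughout. Their part in the transporter levels was not tested. The 8 secretory epithelium markers were listed in every library except high fat diet 3, where 7 were, and summed to 9591 to 19453 FPKM on the control diet and 4180 to 17620 on the high fat diet. Of these 8, 2 were called lower and 0 higher. Their median log2 fold change was -1.57 against -1.08 for all genes, and -0.37 against -0.55 after size factor scaling. Over the 1847 genes listed in all 9 libraries, 7 of these markers among them, the median after that scaling was 0.013. The part of these markers in the transporter changes was not tested. Markers of adipocytes, T and B cells and erythroid cells were unlisted throughout. Of the basal markers 3 of 8, of the macrophage markers 2 of 6 and of the endothelial and fibroblast markers 1 of 9 were listed anywhere. High fat diet 3, where Slc38a2 was unlisted, had Lyz2 at 22.4 FPKM. Lyz2 alone made up its macrophage marker sum of 22.4 FPKM, against 1.08 to 4.33 on the control diet. Cd68, the other macrophage marker listed anywhere, was unlisted in high fat diet 3 and at 1.08 to 4.33 FPKM in 4 control diet libraries. Lyz2 was listed in 1 control diet library, at 1.30 FPKM. The part of these markers in the transporter levels was likewise not tested.

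Genes that sense amino acids through mTORC1 and GCN2 were better represented, with 28 of 32 listed and 24 tested. Of these 5 fell, 0 rose and 19 did not pass, 20.8% against the same 20.8% over all genes, with a median log2 fold change of -1.08. Rptor, the mTORC1 scaffold raptor, ranged over 1.54 to 5.15 FPKM in control diet libraries and was listed in high fat diet 1 alone of the others, at 1.08 (log2 fold change -1.47, limma adjusted p = 0.0309). Flcn, which encodes the Rag regulator folliculin, was at 2.19 to 3.07 FPKM and at 1.84 in high fat diet 1 alone (limma adjusted p = 0.0341). Rragc, a Rag GTPase, was at 2.20 to 6.09 FPKM in control diet libraries, with 2.96 and 1.17 in high fat diet 1 and 4 (limma adjusted p = 0.0367). Seh1l, of the GATOR2 complex, had a limma adjusted p of 0.0298. Sec13, the most abundant of the list, did not pass and was at 12.2 to 57.5 FPKM against 4.32 to 34.5 (limma adjusted p = 0.197).

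Amino acid synthesis genes were listed more often than the transporters, 16 of 16 in at least 1 library and 6 in all 9. Of 14 tested, 1 fell, 0 rose and 13 did not pass, which is 7.14% lower against 20.8% of all genes. Their median log2 fold change was -0.97, and 0.05 after size factor scaling, where that of all genes was -0.55. After that scaling the median of the 1847 genes listed in all 9 libraries, which include 6 of these 16, was 0.013. The fall was Cth, the cysteine-forming cystathionase, at 1.38 to 2.37 FPKM in 4 control diet libraries and unlisted on the high fat diet (limma adjusted p = 0.0426), which like Slc7a7 was admitted by control diet libraries alone. Shmt2, which converts serine to glycine, had 1.75 to 2.93 FPKM in 4 libraries of the control diet and 1.00 in high fat diet 1 (limma adjusted p = 0.0547). The most abundant was Asns, asparagine synthetase, a known target of the amino acid shortage response, at 41.8, 10.99, 31.3, 39.97 and 17.6 FPKM in control diet 1 to 5. In high fat diet 1 to 4 it was at 21.9, 17.8, 3.48 and 9.50 FPKM (log2 fold change -1.14, limma adjusted p = 0.173, positive after size factor and quantile scaling). As deposited, Asns was lowest of the control diet libraries in 2 and 5, the same libraries in which the percentile of Slc3a2 was highest. Those libraries also had the smallest size factors of the control diet, and FPKM depends on library scale while the percentile, within its fixed set of genes, does not. After size factor scaling Asns stood at 14.5 in control diet 2 and 17.5 in control diet 5. It stood at 17.6 to 18.9 in control diet 1, 3 and 4, so control diet 5 was no longer set apart.

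**Figure D4:**
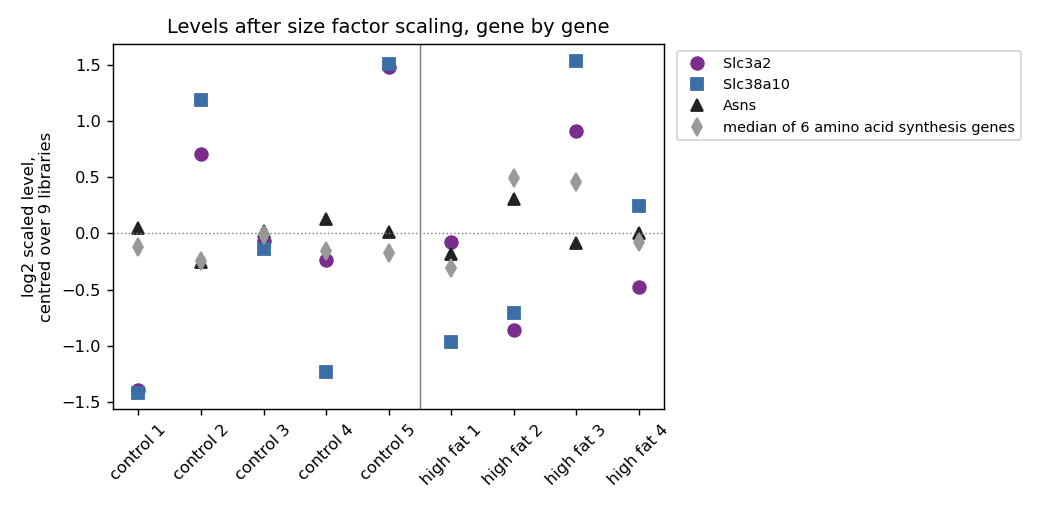
Log2 levels after size factor scaling, centred over the 9 libraries, for Slc3a2, Slc38a10, Asns and the median of the 6 amino acid synthesis genes listed throughout. Slc3a2 runs from -1.39 in control diet 1 to 1.48 in control diet 5 and Slc38a10 from -1.42 in control diet 1 to 1.54 in high fat diet 3, while Asns stays between -0.26 and 0.31.

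Of 14 tested genes of branched-chain amino acid and glutamine breakdown, 2 fell, 0 rose and 12 did not pass. That is 14.3% lower against 20.8% of all genes, with a median log2 fold change of -0.92 against -1.08. Arg1, the urea-forming arginase, ranged over 2.92 to 29.6 FPKM in control diet libraries, with 7.14, 2.02 and 2.06 in high fat diet 1, 2 and 4 (log2 fold change -2.01, limma adjusted p = 0.0315). Arg2, the most abundant, did not pass (limma adjusted p = 0.260). Among 4 tested genes of the sodium pump, whose gradient drives SNAT transport, and of transporter ubiquitin ligases, 1 fell and 3 did not pass. That is 25% lower against 20.8% of all genes, with a median log2 fold change of -1.24 against -1.08. Nedd4l, a ubiquitin ligase known to act on membrane transporters, was at 2.10 to 4.40 FPKM and at 2.28 in high fat diet 1 alone (log2 fold change -1.48, limma adjusted p = 0.0331). Nedd4, the most abundant of this group, did not pass (limma adjusted p = 0.135). Each of the 7 calls named in these lists was lost without at least 1 of the libraries, with a highest limma adjusted p of 0.108 to 0.142. Control diet libraries alone carried these 7 genes past the filter. With unlisted libraries set at the limit of 1 FPKM none of the 7 passed, with log2 fold changes of -1.76 for Arg1, -1.05 for Rragc, -0.83 for Seh1l, -0.73 for Nedd4l, -0.72 for Rptor, -0.67 for Flcn and -0.33 for Cth (limma adjusted p = 0.0582 to 0.0875). After size factor scaling 0 genes of these lists were called.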

How the data were processed

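Total RNA of the washed milk fat layer was sequenced with a stranded kit, per the labels' protocols. The authors' deposited tables, 1 for each library, hold the FPKM of every listed gene with its confidence bounds. Cufflinks, TopHat, Bowtie2, Trimmomatic, FastQC, HTSeq and DESeq2 appear in the submitters' processing notes. Versions, strand setting and build were not given in the sources used here. Gene bounds equalled those of GENCODE M21 (GRCm38) for 9299 of 11206 genes. No library totals or counts are held in the tables, so total depth is unknown and no count test was run. Rows repeated for a gene were reduced to the highest FPKM. The standard deviation was read as the distance from FPKM to its upper bound divided by 2.

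Genes at 1 FPKM or more in at least 4 libraries (7983) were tested with limma 3.58.1 in R 4.3.3 on log2(FPKM + 1), with unlisted genes at 0, a variance trend, diet as the only term and Benjamini-Hochberg adjustment at 0.05. The fit was tested on simulated normal values with the means and spreads of the control diet libraries. These values held no shared library scale and no listing limit, so that test covers neither. Where nothing ties dams to cages, p-values measure the spread between these libraries.

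All 8 members were reported. From each list of related genes the text names up to 4 called genes of smallest p, or up to 2 of smallest p where fewer than 2 were called, and the most abundant gene, except 2 genes that are not reported here. Slc6a6, Slc7a11 and the marker genes named were chosen after their values were seen. The members and lists were chosen with earlier results of these data known. Alternatives changed the pseudocount, filter, limit value, scaling, weights, covariates, variance model, replicate block and libraries. A fit on size-factor-scaled genes listed in all 9 libraries was added after seeing the data.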

Additional observations from a re-analysis of the deposited data

Results flagged for a closer look

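In 3 of 22 gene and diet groups, 1 library lay far from the others of its diet by Dixon's test at the 95% level, which chance gives in about 1 of 20 groups. In high fat diet 1, Slc3a2 had 9.87 FPKM, while libraries 2 to 4 of that diet had 2.83 to 3.29. Arg2 had 29.2 FPKM in the same library, while those 3 libraries had 6.12 to 8.21. Rptor was at 5.15 FPKM in control diet 5, against 1.54 to 2.14 in the other control diet libraries. The test used FPKM as deposited, and high fat diet 1 had the largest size factor of its diet, 1.44. After size factor scaling Slc3a2 stood at 6.85 there, inside the 3.97 to 13.6 of high fat diet 2 to 4.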

How the results depend on the processing

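As deposited, 1662 genes and 2 members were lower and 0 of either higher. A pseudocount of 0.5 gave 1347 lower genes and both members. The count of lower genes was 145 with a pseudocount of 0.1, 87 with unlisted genes at 1 FPKM, 13 without a filter, 15 over genes listed in all 9 libraries, 29 with a replicate block, 11 without a variance trend and 6714 with library weights. It was 0 after size factors, quantile normalization and protein-coding scaling, with the number of listed genes as covariate, without high fat diet 2 and 3 together, and in the added fit of size-factor-scaled genes with a row in all 9 libraries. At an unadjusted p under 0.05 limma then gave 1600, 286, 1962, 265, 1050 and 96 lower and 53, 432, 10, 47, 13 and 80 higher. Higher genes numbered 13 with library weights and 4 with the replicate block. Members called lower numbered 0 under every one of these settings except the pseudocount of 0.5 and library weights, where 2 and 3 were called. Slc3a2 was then at an adjusted p of 0.00168 with library weights. Leaving out 1 library gave 16 to 5215 lower genes, 0 to 4 higher genes and 0 to 3 members lower. Deviations of same-numbered libraries from their diet means correlated at 0.142, -0.285, 0.0431 and -0.0882. They were taken without scaling, so library scale enters them and they cannot show whether the numbers pair the libraries. The percentile difference of Slc3a2, -4.47, ran from -14.2 to 3.19 without single libraries, turned positive without control diet 5, high fat diet 2 or high fat diet 4, and was -11.4 without high fat diet 2 and 3. Log2 fold changes turned positive after size factors for Sec13 (0.080), Asns (0.020) and Arg2 (0.28), with the same values in the added fit. They turned positive under quantile normalization for Slc7a7 (0.10), Slc38a10 (0.20), Slc43a2 (0.37), Sec13 (0.21), Cth (0.085), Asns (0.16), Arg2 (0.43) and Slc6a6 (0.45), and under protein-coding scaling for Arg2 (0.11). With the listed genes as covariate they were 0.58 for Slc43a2, 0.59 for Sec13, 0.35 for Asns, 0.48 for Arg2, 0.26 for Nedd4 and 0.83 for Slc6a6. The cause was not tested. No alternative was run for the planned ratios, which are known only as bounds. Values near 1 FPKM are limited by the listing limit.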

Other observations

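The ratio of Slc3a2 to Asns within a library was 0.154, 0.814, 0.392, 0.325 and 1.15 in control diet 1 to 5, and 0.451, 0.185, 0.831 and 0.298 in high fat diet 1 to 4. Control diet 1 and 5 hold the lowest and the highest of the 9 values, and the high fat diet values lie between them. Snhg1, the small nucleolar RNA host gene that lies 105 bases from the annotated span of Slc3a2, was at 8.82, 4.50, 12.2, 11.6 and 9.21 FPKM in control diet 1 to 5. It was at 7.68 and 2.70 FPKM in high fat diet 1 and 4 and unlisted in high fat diet 2 and 3, the libraries in which Slc38a2 was unlisted.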
